A study of Mus musculus with 12 samples.

Results

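The genes described here encode the proteins of the mitochondrial ribosome, chosen by symbol alone. A gene was a member when its symbol began with Mrpl (large subunit) or Mrps (small subunit) followed by a number, and 5 symbols marked as pseudogenes were left out. This gave 78 of the 36008 genes in the expression table, 49 of the large and 29 of the small subunit. All 78 passed the filter on low values, which asked for a TPM above 5 in 1 or more of the 12 libraries, as did 10481 genes in all. TPM, the unit of the deposited table, is the abundance of a gene's transcripts per length, as a share of its library. RNA was sequenced from 2 hindlimb muscles, gastrocnemius and quadriceps, of female mice that flew for 9 weeks on the International Space Station or stayed on the ground. The mice were 30 weeks old at the start, and per the study's methods all of them, ground controls included, received control injections of PBS every 2 weeks, having been part of a bone therapy trial. The labels name the strain C57BL/6 and the study's methods name BALB/c, and each comparison is within the one set of mice. The 4 groups are flight gastrocnemius, ground gastrocnemius, flight quadriceps and ground quadriceps, with 3 mice each. Both muscles came from the same mice, M02, M03 and M08 on the ground and M11, M12 and M20 in flight. The carcasses had been frozen and were thawed for dissection.

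Mitochondria keep a small genome of their own, and the proteins it encodes, core subunits of the respiratory chain and of ATP synthase, are made on a dedicated ribosome inside the organelle. Its RNAs come from that genome, while all its proteins are encoded in the nucleus, made in the cytosol and imported. The small subunit binds the mRNA and decodes it, and the large subunit joins amino acids and holds the exit tunnel next to the inner membrane. Many of its proteins have a bacterial relative, and others were added during the evolution of mitochondria. Skeletal muscle is rich in mitochondria, more so in slow oxidative than in fast glycolytic fibers. The symbols follow naming history rather than structure in a few cases. Mrps18a and Mrps30 sit in the large subunit, and Mrps36 is now known as a component of the 2-oxoglutarate dehydrogenase complex rather than of the ribosome.

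The TPM of a library summed to between 923295 and 966638, and TPM carries no counting depth. The quadriceps library of ground mouse M08 had 18172 genes above 0 against 20291 to 21265 in the other 11 libraries. The 13 protein-coding genes of the mitochondrial genome took a larger part of the gastrocnemius libraries in flight. Their summed TPM was 154236 to 176225 in the ground gastrocnemius and 202645 to 220355 in the flight gastrocnemius, without overlap. In the quadriceps the same sum was 159658 to 184829 on the ground and 166411 to 193419 in flight, with overlap. TPM is a share of a library, so a rise in these transcripts lowers the share left to others, and its part in the results below was not tested beyond the rescaling given with each of them. In bulk tissue, fewer cells of a type and less RNA per cell cannot be told apart.

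The members were expressed at moderate and similar levels. The mean TPM over the 12 libraries ran from 6.11 (Mrps30) to 227 (Mrps21), and 64 of 78 members lay between 10 and 50. The median member, at 27.5 TPM, was above 71.9% of the genes tested, whose median was 14. The median of the large subunit was 27.9 TPM and that of the small subunit 27.1 TPM. Mrps21, homologue of a bacterial small-subunit protein, stood alone at the top, with 173 to 203 TPM in the gastrocnemius and 251 to 308 in the quadriceps. The next in the small subunit were Mrps5 (63.6 TPM), Mrps15 (50.4), Mrps36 (43.8) and Mrps33 (40.8). In the large subunit the order was Mrpl33 (116 TPM), Mrpl51 (107), Mrpl30 (105), Mrpl42 (99.0) and Mrpl15 (96.0), and the ranges over libraries of these 5 overlapped. At the low end were Mrpl39 (10.5 TPM), Mrpl46 (11.1) and Mrpl49 (11.9) in the large subunit, and Mrps30 (6.11), Mrps2 (8.83) and Mrps27 (9.10) in the small subunit. In a single library the difference between the median log2(TPM + 1) of the large and of the small subunit lay between -0.30 and 0.13. Its range in each group is given with the comparison of the subunits below. Its mean over the 12 libraries was -0.04, and it changed to 0.32 when the 13 members that share 20% or more of their sequence with transcripts of other genes were left out. The sequence shared was counted as runs of 31 bases, the length that kallisto uses by default to assign reads. The 13 were Mrpl53 (84.4% shared), Mrps34 (73.8%), Mrps25 (68.9%), Mrpl27 (38.9%), Mrpl43 (38.5%), Mrpl19 (37.9%) and Mrps18c (34.5%), with Mrps18b, Mrpl22, Mrpl24, Mrpl47, Mrpl41 and Mrps36 between 21% and 31.6%. Their values may be less certain, since reads of shared runs may have been divided by estimate. Runs were counted on both strands, and whether kallisto was run with strand is not known here.

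The first question was whether the members differed between flight and ground in each muscle. In the gastrocnemius most members had lower values in flight, by a small margin. Of the 78 members, 61 had a log2 fold change below 0, against 46.4% of all genes tested, and the median was -0.12 against 0.019 over all genes. No member passed the test (limma, Benjamini-Hochberg adjusted p under 0.05 with over 1.5-fold change), as 0.229% of all genes did. At an unadjusted p under 0.05, 14 members were lower, where 6.55% of all genes were, and 1 was higher, where 8.52% of all genes were. The count of 14 was 6 without M03, 6 without M20 and 24 without M11. The flight values lay below the ground values without overlap for 22 members, against 8.55% of all genes, and above them for 1, against 12.5%. The summed TPM of the members was 2472 to 2630 on the ground. In flight it was 2509 in M11, 2225 in M12 and 2219 in M20. M11 lay inside the ground range and the other two below it. The median member of M11 was 0.05 below the ground mean on the log2 scale, whereas in M12 and M20 it was 0.18 and 0.20 below. Without M11, 133 genes in place of 24 passed the test, and 3 of them were members, Mrpl42 (log2 fold change -0.70, limma adjusted p = 0.0282), Mrps24 (-0.76, 0.0316) and Mrps16 (-0.66, 0.0377). Without one of the other mice, 1 to 8 genes passed, none of them a member. The median change of the members was -0.14 after the libraries were rescaled by their median ratio.

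**Figure D1:**
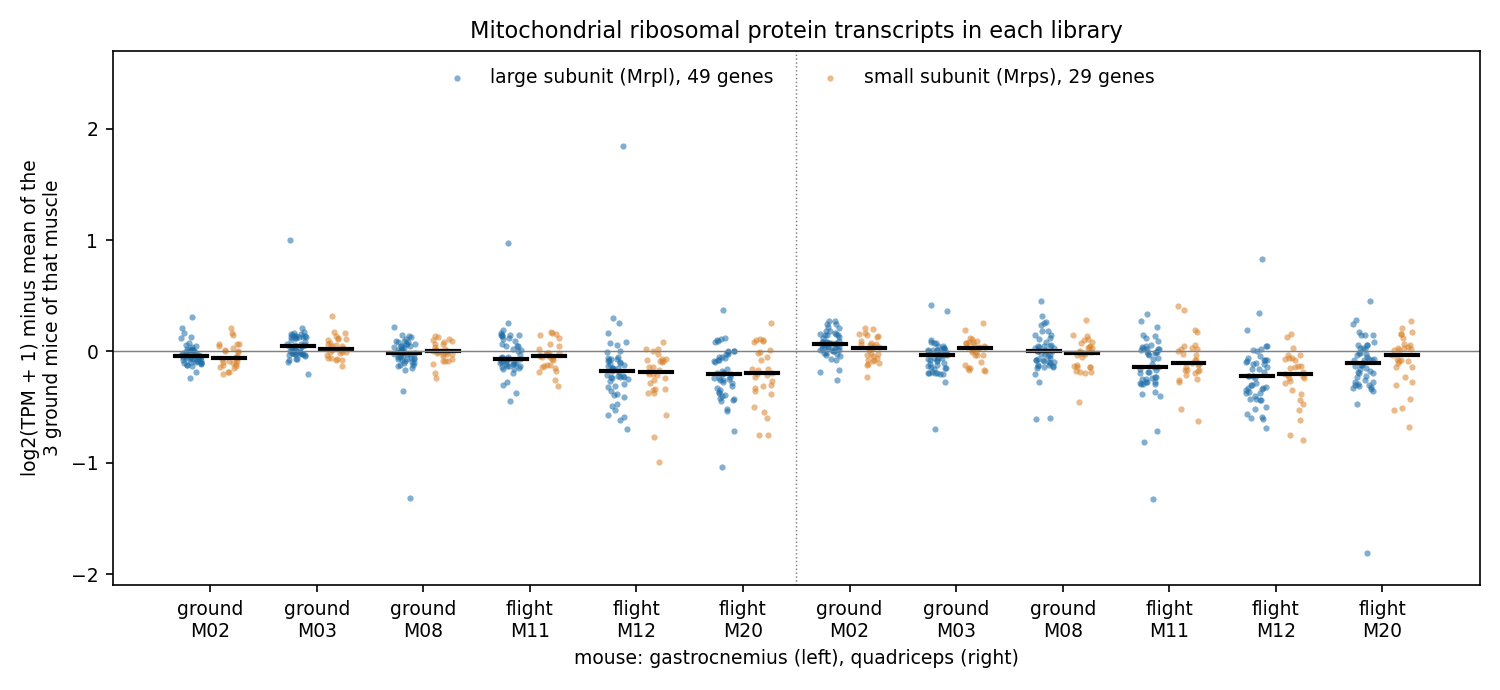
Each point is 1 gene in 1 library, as log2(TPM + 1) minus the mean of the 3 ground mice of that muscle (y axis), with libraries on the x axis, the 49 large-subunit genes in blue, the 29 small-subunit genes in orange and black bars at the medians. The medians of both subunits are below 0 in all 6 flight libraries, least in the gastrocnemius of M11 and in the small subunit of the quadriceps of M20, and the single gene far from the rest in several libraries is Mrpl23.

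In the large subunit the 5 smallest p-values in the gastrocnemius were those of Mrpl43, Mrpl34, Mrpl11, Mrpl30 and Mrpl54. Mrpl43, a protein of the large subunit without a bacterial relative, had 21.6, 21.9 and 20.4 TPM in the ground mice and 16.2, 16.1 and 15.7 TPM in the flight mice. All 3 flight values were below all ground values, a log2 fold change of -0.39 (SE 0.08, limma adjusted p = 0.127). Of the Mrpl43 sequence, 38.5% is shared with transcripts of other genes, chiefly its overlapping neighbour Twnk, the mitochondrial DNA helicase, so reads of the pair may have been divided between them. Twnk was at 11.4 ± 2.03 and 11 ± 0.404 TPM in the gastrocnemius and 14.9 ± 0.601 and 11.6 ± 1.55 TPM in the quadriceps (ground and flight, SD, n = 3 each). Mrpl34, homologue of a short bacterial large-subunit protein, shares none of its sequence. Mrpl34 had 22.1, 27.5 and 23.4 TPM on the ground and 17.5, 15.8 and 17.7 TPM in flight, again without overlap. The log2 fold change was -0.49 (SE 0.11, limma adjusted p = 0.138). Mrpl11, of the stalk base where elongation factors dock, had group means of 32 ± 1.30 TPM (SD, n = 3) and 24.6 ± 3.34 TPM (SD, n = 3). Mrpl30 had means of 101 ± 5.23 and 79.2 ± 12.5 TPM, and Mrpl54 of 48.4 ± 2.53 and 39.5 ± 3.73 TPM (SD, n = 3 each).

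In the small subunit they were those of Mrps36, Mrps33, Mrps24, Mrps16 and Mrps14. Mrps33, a small-subunit protein found only in mitochondria, had 37.4, 44.1 and 40.2 TPM on the ground and 32.5, 19.9 and 28.3 TPM in flight. At a log2 fold change of -0.60 (SE 0.17, limma adjusted p = 0.21) it had the most negative estimate of all members, with M12 lowest. Mrps24, which belongs to the mRNA entry side of the small subunit, had 26.7, 31 and 31.5 TPM on the ground and 26.7, 17 and 17.3 TPM in flight. The flight value of M11 was only just below the lowest ground value, and the log2 fold change was -0.55 (SE 0.17, limma adjusted p = 0.226). Mrps16 gave means of 22.5 ± 1.13 TPM on the ground and 16.1 ± 3.84 TPM in flight (SD, n = 3 each). Mrps36 gave 42.6 ± 3.54 and 32.6 ± 3.40 TPM (SD, n = 3 each). In Mrps14 the groups overlapped, at 37.3 ± 2.62 and 29.3 ± 5.59 TPM (SD, n = 3 each). The 1 member with higher values in flight at an unadjusted p under 0.05 was Mrpl48, chosen after its values were seen, with 49.6 to 56.4 TPM on the ground and 59.7 to 69.4 TPM in flight (log2 fold change 0.26, limma adjusted p = 0.25).

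In the quadriceps most members also had lower values in flight. Below 0 were 62 of 78 members, where 47.9% of all genes were, and their median was -0.14 against 0.012 over all genes. No member passed the test, as 0.0286% of all genes did. At an unadjusted p under 0.05, 16 members were lower, against 5.18% of all genes, and none was higher, against 5.66%. Flight lay below ground without overlap for 19 members, where 8.12% of all genes did so, and above it for none, where 9.24% did. The summed TPM of the members was 3246, 3142 and 3129 on the ground and 2955, 2723 and 2966 in flight, so that every flight mouse was below every ground mouse. M12 was the lowest, and without it the median log2 fold change was -0.077. The count of members lower at an unadjusted p under 0.05 was 10 without ground mouse M02, and 13 to 18 without any other mouse. Without M08, whose library had the fewest genes above 0, it was 16. After rescaling by the median ratio the median change was -0.15.

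Mrps24 had the smallest p of the members in the quadriceps, with 35.3, 36.5 and 35.7 TPM on the ground and 24.8, 20.9 and 22.1 TPM in flight. The ground mice spanned little more than 1 TPM and the flight mice lay well below, at a log2 fold change of -0.65 (SE 0.09, limma adjusted p = 0.224). Mrpl42, a large-subunit protein found only in mitochondria, had 130, 131 and 133 TPM on the ground and 108, 81.3 and 94.1 TPM in flight (log2 fold change -0.48, SE 0.11, limma adjusted p = 0.298). In the gastrocnemius Mrpl42 had 100 TPM in M11, within the ground range of 89.5 to 106, and 59.6 and 58.8 TPM in M12 and M20. Mrpl12, which forms the stalk that recruits translation factors, had 50.4, 47 and 49.3 TPM on the ground and 40.3, 34.0 and 38.6 TPM in flight. The groups did not overlap, at a log2 fold change of -0.37 (SE 0.09, limma adjusted p = 0.299). Mrpl53, Mrpl55 and Mrpl34 completed the 5 smallest p-values of the large subunit, with log2 fold changes of -0.40, -0.48 and -0.39 and limma adjusted p of 0.319, 0.36 and 0.362. For Mrpl53, 84.4% of the sequence is shared with other genes. In the small subunit Mrps16 had means of 32.9 ± 2.85 and 23.8 ± 3.32 TPM (SD, n = 3 each). Mrps36 had means of 57.1 ± 4.35 and 42.9 ± 6.32 TPM (SD, n = 3 each). Mrps33 and Mrps2 followed, with log2 fold changes of -0.29 and -0.26.

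Both muscles were then read together. Below 0 in both were 54 members and above 0 in both were 9, and of all genes tested 30.9% were below 0 in both. Flight lay below ground without overlap in both muscles for 12 members, 7 large and 5 small, as it did for 2.94% of all genes, and above it in both for none, as it did for 3.06%. Both muscles came from the same mice, so the second muscle is not an independent sample. The 12 were Mrpl11, Mrpl28, Mrpl30, Mrpl34, Mrpl43, Mrpl53, Mrpl55, Mrps2, Mrps16, Mrps24, Mrps33 and Mrps36. By symbol they cover both subunits, and they hold both kinds of ribosomal protein. Mrpl11, Mrpl28, Mrpl30, Mrpl34, Mrpl55, Mrps2, Mrps16 and Mrps24 have a bacterial relative, and Mrpl43, Mrpl53 and Mrps33 are specific to mitochondria. Mrps36, not a ribosome component as said above, belongs to neither kind. Mrps2, the least abundant of them, had 8.04 to 9.42 TPM on the ground and 7 to 7.93 TPM in flight in the gastrocnemius. In the quadriceps it had 9.57 to 11.2 TPM on the ground and 8.03 to 8.91 TPM in flight. Mrpl28 stood out by its spread, since the 3 flight gastrocnemius values were 18.8, 19 and 18.8 TPM against 21.3 to 25.3 TPM on the ground.

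**Figure D2:**
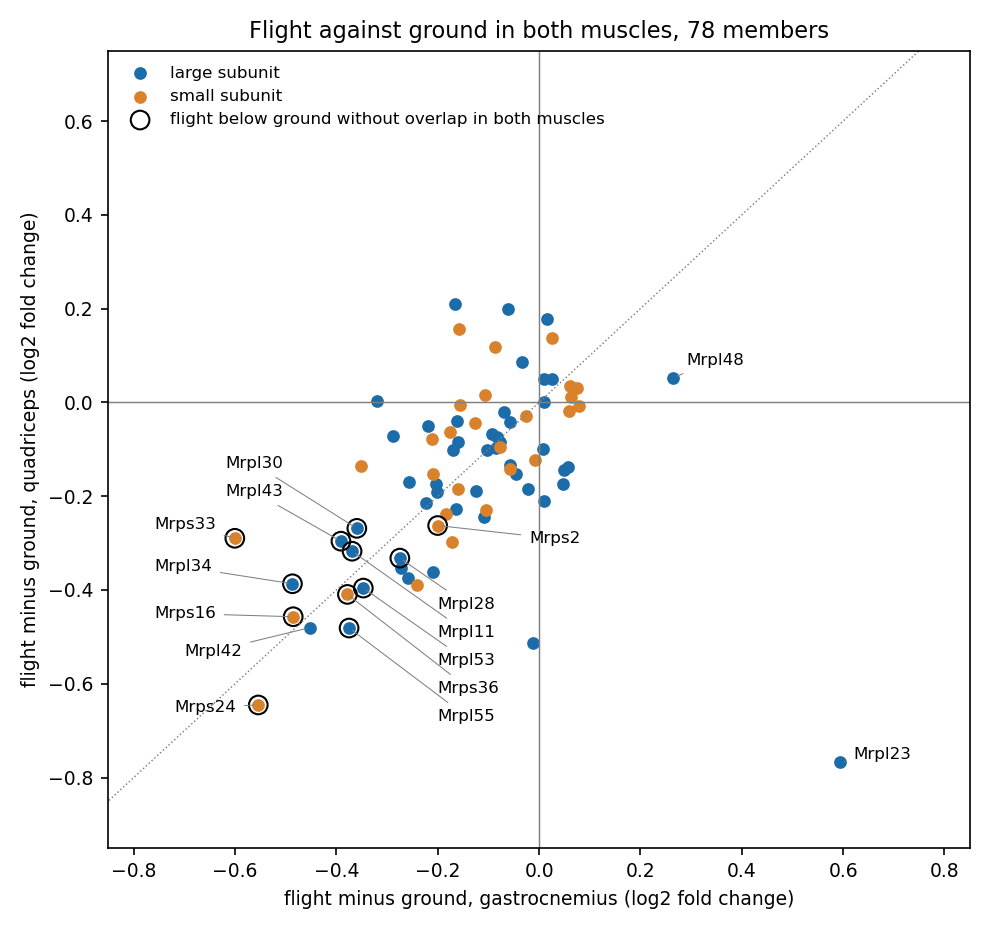
Each of the 78 members is placed by its log2 fold change of flight against ground, gastrocnemius on the x axis and quadriceps on the y axis, with the large subunit in blue and the small in orange. The 12 circled members, whose flight values lie below ground without overlap in both muscles, sit at the lower left, and the outlying point at the lower right is Mrpl23.

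With the 2 muscles of each mouse averaged, so that the mouse was the replicate, 63 of 78 members were below 0, where 45.9% of all genes were. The median was -0.10, against 0.019 over all genes. No member passed the test, as 0.124% of all genes did. At an unadjusted p under 0.05, 23 members were lower, against 8.06% of all genes, and none was higher, against 9.94%. Flight lay below ground without overlap for 29 members, where 10.7% of all genes did so, and above it for none, where 13.7% did. Mrpl34 had the smallest p, at a log2 fold change of -0.44 (95% CI -0.60 to -0.27, limma adjusted p = 0.0602). Mrps24 followed at -0.60 (95% CI -0.87 to -0.33, limma adjusted p = 0.0709). Mrpl43 was at -0.34 (limma adjusted p = 0.0752), Mrpl55 at -0.43 (0.0816) and Mrpl28 at -0.30 (0.089). In the order of p the list went on with Mrpl53 (-0.37, 0.0981) in the large subunit. In the small subunit Mrps36 (-0.39, 0.109), Mrps16 (-0.47, 0.118), Mrps33 (-0.45, 0.135) and Mrps2 (-0.23, 0.21) came after Mrps24. The adjusted p of Mrpl34 was 0.0396 after rescaling by the median ratio, where its change was still under 1.5-fold. Without M11, 10 members had an adjusted p under 0.05, and Mrps24 (-0.73), Mrpl42 (-0.64) and Mrps16 (-0.61) were also past 1.5-fold. Without any other mouse none did. Over all genes, 0 to 134 passed the test when a single mouse was left out, against 13 with all mice. The share of all genes at an adjusted p under 0.05 alone was not taken without M11.

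**Figure D3:**
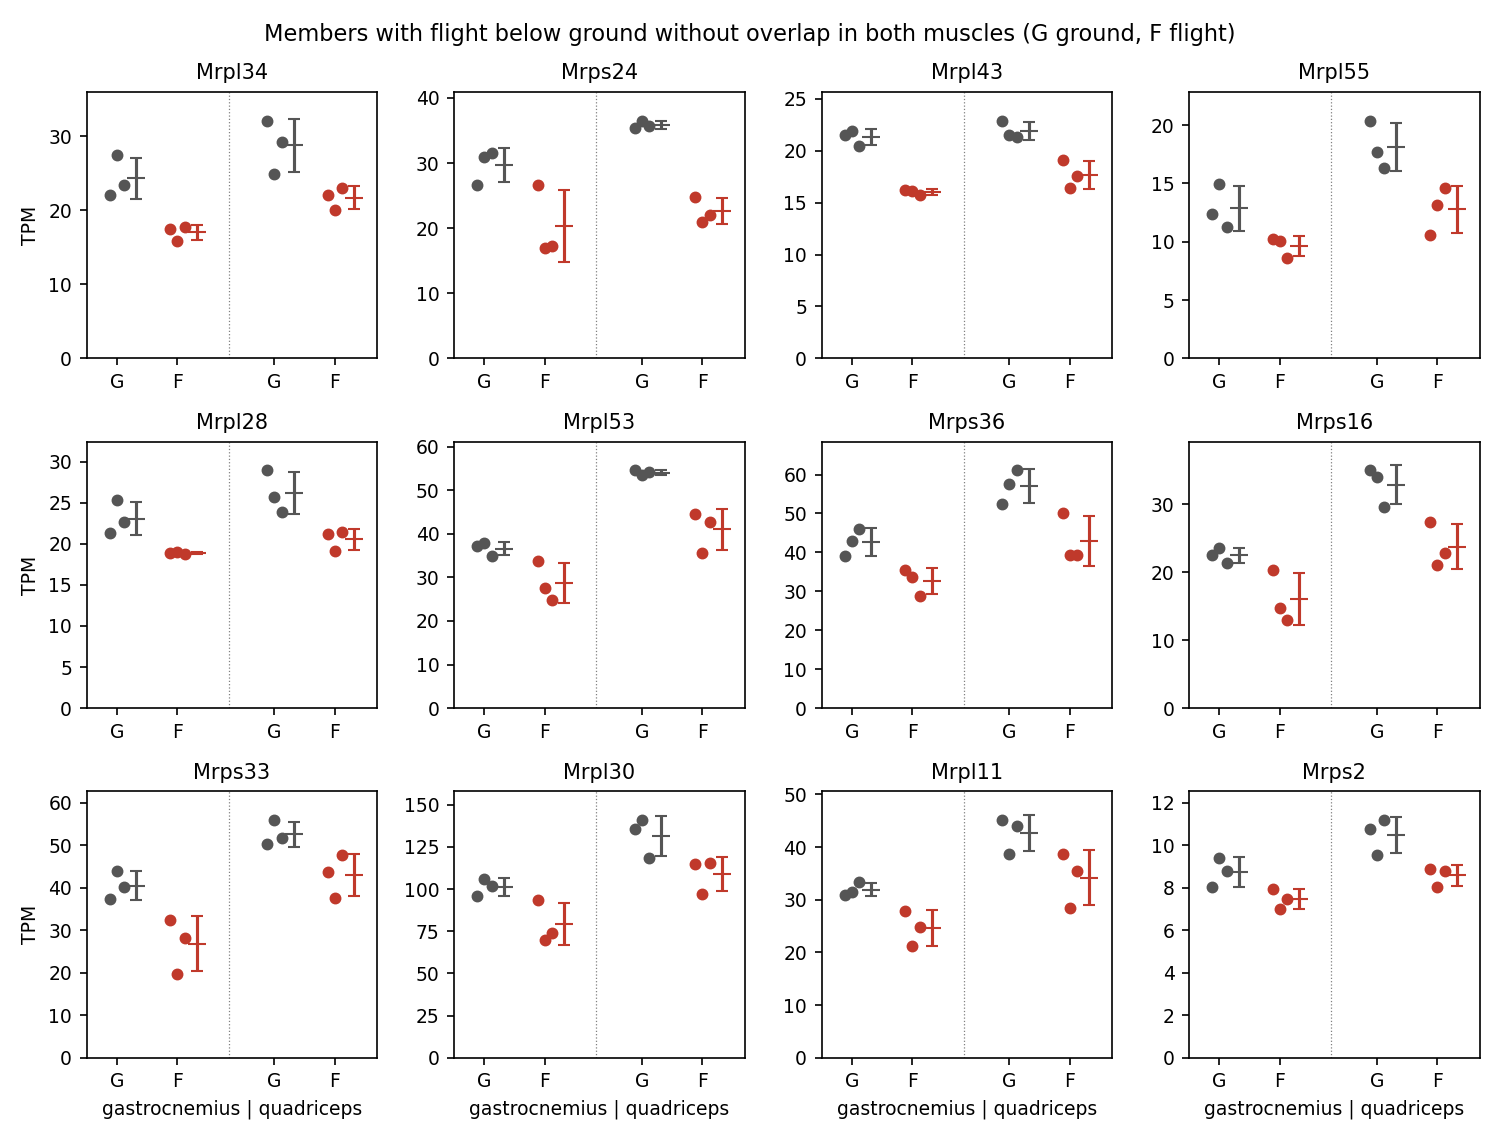
TPM of the 12 members whose flight mice lay below the ground mice in both muscles, with 1 point for each mouse, the bar and whiskers at the mean ± SD, ground in grey and flight in red, gastrocnemius on the left of each panel and quadriceps on the right. Y axes start at 0 and differ between panels, and Mrps24 shows M11 close to the ground values in the gastrocnemius but not in the quadriceps.

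Whether flight acted differently on the 2 muscles was put to an interaction test, with the mouse as a block. No member reached an unadjusted p under 0.05, as 5.09% of all genes did, and no gene passed the adjusted test (0% of all genes). The smallest p was that of Mrpl23, a protein at the exit tunnel, whose values were scattered in every group but one. Mrpl23 had 9.17, 15.5 and 2.29 TPM in the ground gastrocnemius and 15.1, 28.4 and 3 TPM in the flight gastrocnemius. In the quadriceps it had 24.4, 19.3 and 21 TPM on the ground and 7.98, 39 and 5.40 TPM in flight. The difference of its flight effects was -1.36 (95% CI -2.74 to 0.017, limma adjusted p = 0.957). Next came Mrps33 (0.31), Mrpl40 (0.37), Mrpl33 (0.32) and Mrpl27 (-0.22), all at the same limma adjusted p of 0.957. For Mrps33 the 95% interval of the difference was -0.011 to 0.63, which does not show that the muscles responded alike.

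The large and the small subunit were compared by their medians, without a test. In the gastrocnemius the large subunit had a median of -0.11 and the small subunit of -0.16 (log2 fold change, flight against ground). In the quadriceps the order was the other way round, at -0.14 for the large and -0.10 for the small subunit. Averaged over both muscles these medians of fold changes were level, at -0.10 and -0.10. Large minus small was 0.047 in the gastrocnemius. In the quadriceps it was -0.049, and the SD of this difference between libraries of a group was 0.033. In the gastrocnemius it was -0.0031 without M11 and -0.0050 without M20. With Mrps18a and Mrps30 counted as large and Mrps36 left out, the gastrocnemius medians were -0.11 and -0.14 and those of the quadriceps -0.14 and -0.086. The ratio of summed TPM, large over small, was 1.8 to 1.82 in the ground gastrocnemius and 1.72 to 1.79 in the flight gastrocnemius. The quadriceps ratio was 1.71 to 1.81 on the ground and 1.65 to 1.72 in flight. Members classed as homologues of bacterial proteins (46) had medians of -0.096 (gastrocnemius) and -0.14 (quadriceps), and those classed as specific to mitochondria (29) -0.16 and -0.10. Mrps18a, Mrps30 and Mrps36 were in neither class, and Mrps18b, related to S18 in sequence, was classed by its place in the ribosome as specific to mitochondria.

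Some members are known for roles of their own. Mrpl58, a peptidyl-tRNA hydrolase that frees stalled chains and is built into the large subunit, had 23.7 to 28.3 TPM in the ground gastrocnemius and 23.5 to 31.5 TPM in flight. The quadriceps gave 30.7 to 33.3 TPM on the ground and 27.5 to 31.6 TPM in flight. The groups of Mrpl58 overlapped in both muscles. Mrps12, of the decoding center, was at 18.4 ± 3.94 and 16.2 ± 0.478 TPM in the gastrocnemius (SD, n = 3 each). In the quadriceps Mrps12 was at 18.5 ± 3.43 and 20.7 ± 3.20 TPM (SD, n = 3 each). Mrpl41, also described as an apoptosis-linked protein, had log2 fold changes of -0.046 and -0.15 in the gastrocnemius and the quadriceps, with overlapping groups. The 3 paralogues of bacterial S18 each sit at a different place in the ribosome, and none differed beyond its spread. Mrps18a had log2 fold changes of -0.16 and -0.0051, Mrps18b of -0.13 and -0.043, and Mrps18c of -0.11 and -0.23, in the gastrocnemius and the quadriceps. Mrps30 was at 5.73 ± 0.1 and 5.48 ± 0.533 TPM in the ground and flight gastrocnemius (SD, n = 3 each).

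Levels were also compared between the muscles. They were lower in the gastrocnemius than in the quadriceps for 74 of 78 members, where 68.6% of all genes were. The median log2 difference (gastrocnemius minus quadriceps, over the 6 mice) was -0.24. All genes together had a median of -0.11. Cytosolic ribosomal proteins had a median of -0.35, nuclear-encoded subunits of oxidative phosphorylation -0.28 and mitochondrial translation factors -0.27. Of their genes tested, 79 of 86, 78 of 90 and 14 of 15 were lower. Factors of mitochondrial ribosome assembly had a median of -0.096 and mitochondrial aminoacyl-tRNA synthetases of -0.15. After rescaling by the median ratio the median of the members was -0.12. The fit, also used within ground and within flight mice below, had no mouse block, although both muscles came from the same mice. With limma, 41 members had an adjusted p under 0.05, all lower, where 23.5% of all genes were lower by the same rule. None was past 1.5-fold, as 2.15% of all genes were in that direction. Mrpl33 passed the test with this fold without M08 (-0.60), without M20 (-0.60) and without M11 (-0.59), and Mrps33 without M11 (-0.59). In 38 members, 22 large and 16 small, the gastrocnemius was below the quadriceps in all 6 mice, as in 26% of all genes. After rescaling, 20 members had an adjusted p under 0.05 and 64 lay below 0. Without M20 the count of 41 was 26, and it was 31 to 37 without any other mouse. Shares of all genes by these rules were not taken after rescaling or without a mouse, so these counts have no background beside them. Of 9 fast fiber markers, 7 were also lower in the gastrocnemius and 2 higher at an unadjusted p under 0.05, and 5 of 6 markers of nerve and Schwann cells were higher, with a median of 1.43. Their part in the difference was not tested.

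Mrps21 had the smallest p between the muscles, with 173, 190, 178, 203, 183 and 179 TPM in the gastrocnemius of M02, M03, M08, M11, M12 and M20. In the quadriceps of the same mice it had 274, 265, 256, 260, 251 and 308 TPM. The muscles did not overlap, at a log2 difference of -0.54 (SE 0.06, limma adjusted p = 0.000174). Mrpl21 had 27 to 29.7 TPM against 36.2 to 40.8 TPM, also without overlap (log2 difference -0.45, limma adjusted p = 0.000244). Mrpl32, whose processing by an inner-membrane protease precedes ribosome assembly, had group means of 23.8 ± 2.24 and 22.6 ± 2.50 TPM in the ground and flight gastrocnemius (SD, n = 3 each). In the quadriceps its means were 32.8 ± 1.65 and 32.3 ± 1.17 TPM (SD, n = 3 each), a log2 difference of -0.48 between the muscles (limma adjusted p = 0.000662). Mrpl33 (-0.56) and Mrpl53 (-0.53) completed the 5 with the smallest p.

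Within the ground mice alone 14 members had an adjusted p under 0.05 between the muscles, lower in the gastrocnemius, against 8.09% of all genes, and none was past 1.5-fold (1.84% of all genes). That count was 0 without M02, 0 without M03, 3 without M08 and 9 without M20, and 2 after rescaling by the median ratio. Within the flight mice alone 17 members had an adjusted p under 0.05, all lower in the gastrocnemius, against 10% of all genes. That count was 11 without M03, 6 without M12 and 4 without M20, and 7 after rescaling. Shares of all genes were not taken for the counts without a mouse or after rescaling, in ground or flight mice. Past 1.5-fold were 4 of the 17 members, as 2.24% of all genes were. They were Mrpl33 (log2 difference -0.72, limma adjusted p = 0.00494), Mrps33 (-0.68, 0.0154), Mrpl40 (-0.59, 0.0141) and Mrps14 (-0.59, 0.0244). Mrpl33, homologue of a small bacterial large-subunit protein, had 99.4, 67.6 and 86.3 TPM in the flight gastrocnemius and 150, 139 and 126 TPM in the flight quadriceps. The 2 sets did not overlap. Mrpl40 had 11.6, 11.8 and 10.5 TPM against 15.4, 19.4 and 18 TPM. Without M12 none of the 4 passed the test, without M20 Mrpl33 alone of the 4 did, and Mrps14 did not without M03. After rescaling, Mrpl33 was the 1 member that passed, and the difference of these 4 between flight and ground mice did not pass the interaction test above.

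The members were set beside related genes, described by counts and medians. Cytosolic ribosomal proteins (86 genes tested) had medians of -0.26 and -0.29 (log2 fold change in flight, gastrocnemius and quadriceps). Of these, 75 and 79 were below 0, and 41 and 48 were lower at an unadjusted p under 0.05. Nuclear-encoded subunits of oxidative phosphorylation (90 genes tested) had medians of -0.27 and -0.23, with 44 and 42 lower at an unadjusted p under 0.05. The medians of the members, -0.12 and -0.14, lay between these and the medians of all genes. The 13 mitochondrially encoded subunits, the products of this ribosome, had a median of 0.31 in the gastrocnemius, where 10 of 13 were higher and 2 lower at an unadjusted p under 0.05. In the quadriceps their median was 0.079, and none was past that p in either direction. In the interaction test 8 of 13 were lower in the quadriceps contrast at an unadjusted p under 0.05, and no gene had an adjusted p under 0.05. mt-Nd2 was at 9609 ± 812 and 13469 ± 565 TPM in the ground and flight gastrocnemius (SD, n = 3 each, limma adjusted p = 0.0945). The next by p in the gastrocnemius was mt-Nd1 (log2 fold change 0.47), and in the quadriceps mt-Co2 had the smallest p (-0.69, limma adjusted p = 0.473). mt-Atp8 had the smallest p over both muscles (log2 fold change 0.38, limma adjusted p = 0.0457), a change of under 1.5-fold.

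Other parts of mitochondrial translation had smaller medians. The 5 ribosomal proteins with other symbols had medians of -0.025 and -0.047 in the gastrocnemius and the quadriceps. Among them Chchd1, a small-subunit protein, was at 74.2 ± 2.25 and 58.3 ± 1.95 TPM in the gastrocnemius (SD, n = 3 each, limma adjusted p = 0.135). In the quadriceps Chchd1 was at 75.1 ± 9.04 and 62 ± 2.49 TPM (SD, n = 3 each, limma adjusted p = 0.426), without overlap in either muscle. Dap3, a GTP-binding protein of the small subunit, gave overlapping groups in the gastrocnemius, at 19.8 ± 0.759 and 21.6 ± 3.23 TPM (SD, n = 3 each). Assembly factors (19 of 24 tested) had medians of -0.055 and -0.015, with 2 lower and 1 higher at an unadjusted p under 0.05 in the gastrocnemius and 1 in each direction in the quadriceps. Malsu1, which keeps the immature large subunit from joining, was at 18.7 ± 1.23 and 13.2 ± 2.67 TPM in the gastrocnemius (SD, n = 3 each, limma adjusted p = 0.218). Ngrn was at 15.9 ± 1.21 and 12.5 ± 0.673 TPM (SD, n = 3 each, limma adjusted p = 0.217). In the quadriceps the smallest p-values were those of Ddx28 (log2 fold change -0.49) and Mterf3 (0.22), and over both muscles those of Mrm3, which methylates the large ribosomal RNA (-0.39, limma adjusted p = 0.181), and Malsu1 (-0.33). Aurkaip1, of the small subunit, had the next smallest p after Chchd1 in the quadriceps, at 0.22 (limma adjusted p = 0.748).

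Translation factors (15 tested) had medians of -0.11 and -0.088. Tsfm, the exchange factor of the mitochondrial elongation factor Tufm, was at 11.7 ± 0.527 and 8.86 ± 1.44 TPM in the gastrocnemius (SD, n = 3 each). In the quadriceps Tsfm was at 13 ± 1.53 and 10.5 ± 0.707 TPM (SD, n = 3 each), and over both muscles its limma adjusted p was 0.0981. Slirp, which stabilizes mitochondrial mRNAs, had a log2 fold change of -0.25 in the gastrocnemius, and Tufm one of -0.21 in the quadriceps. Gfm2, which recycles ribosomes, was at -0.19 over both muscles (limma adjusted p = 0.246). Mitochondrial aminoacyl-tRNA synthetases (18 of 20 tested) had medians of 0.00020 and -0.040. Fars2, which charges phenylalanine tRNA, had higher values in flight in the gastrocnemius, at 14.7 ± 1.05 and 20.9 ± 0.844 TPM (SD, n = 3 each, limma adjusted p = 0.107). In the quadriceps Tars2, for threonine, was at 15.8 ± 0.972 and 21.9 ± 0.751 TPM (SD, n = 3 each, limma adjusted p = 0.285). Genes for transcription and replication of mitochondrial DNA (10 of 13 tested) had medians of -0.035 and -0.088. The smallest p-values were those of Tefm (log2 fold change -0.29) and Polg (-0.17) in the gastrocnemius, and of Twnk (-0.34) and Polrmt (-0.29) in the quadriceps, with limma adjusted p of 0.414 and over. Vars2 (-0.36 in the gastrocnemius) and Wars2 (0.54 in the quadriceps) were the next synthetases by p.

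**Figure D4:**
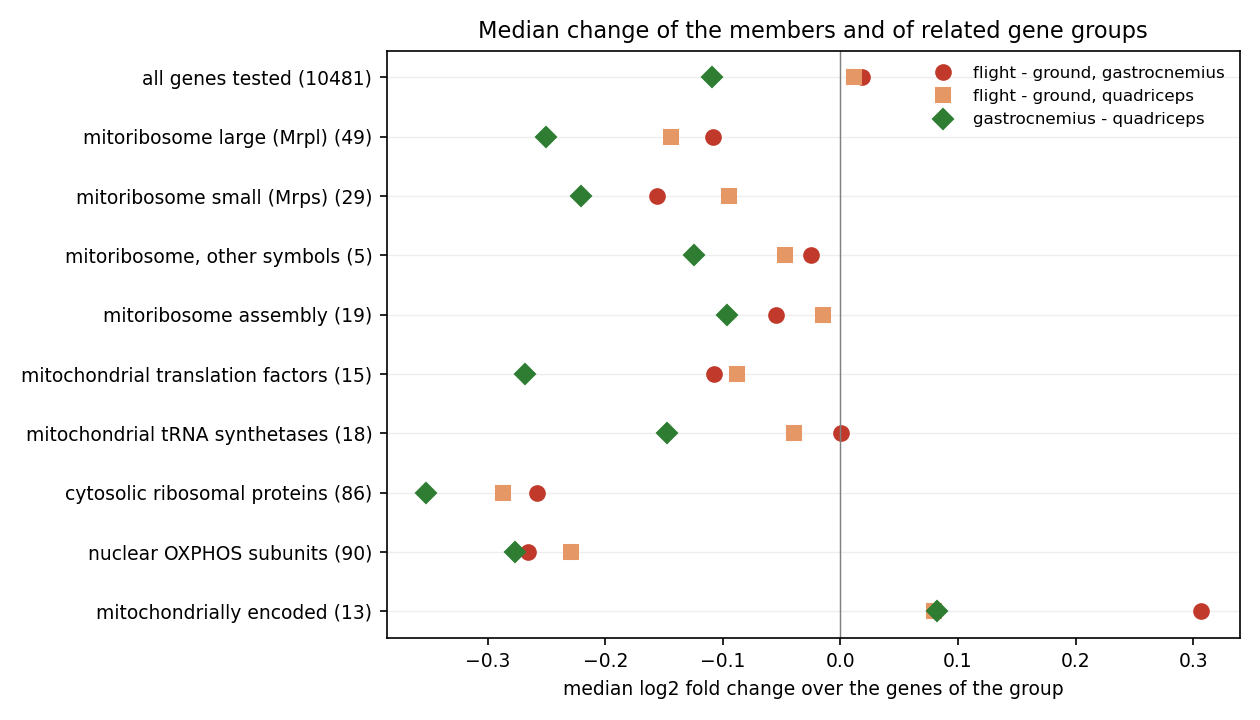
Median log2 fold change over the genes of each group (x axis) for flight against ground in the gastrocnemius (red circles) and the quadriceps (orange squares) and for gastrocnemius against quadriceps over the 6 mice (green diamonds), with the number of genes tested in parentheses. The large and small subunit lie between all genes and the cytosolic ribosomal and nuclear OXPHOS (oxidative phosphorylation) genes, and the mitochondrially encoded genes lie to the right.

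Markers of fiber types and of other cells moved with flight in places. Of 8 slow fiber markers, 5 were lower in the flight gastrocnemius at an unadjusted p under 0.05 and 3 passed the test, with a median of -0.68 and a summed TPM of 1271 to 1505 in flight against 1944 to 2363 on the ground. In the quadriceps none was lower by that rule. Of 9 fast fiber markers, 4 were higher and 1 lower in the flight gastrocnemius at an unadjusted p under 0.05, and 1 in each direction in the quadriceps. Of 7 adipocyte markers tested, all 7 were lower in the flight quadriceps at an unadjusted p under 0.05, with a median of -1.09. The summed TPM of all 8 adipocyte markers was 210 to 291 in flight and 334 to 635 on the ground, and in the gastrocnemius 186 to 249 and 188 to 270. None of the 6 endothelial or the 6 nerve markers reached an unadjusted p under 0.05 in either muscle. The same held for the 5 blood, 4 macrophage and 3 tendon markers tested. The part of these shifts in the values of the members was not tested.

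The flight values were also read by transcript length. Among all genes tested, those with a principal transcript under 800 bases had medians of 0 and -0.0094 (log2 fold change, gastrocnemius and quadriceps), and those with a principal transcript of 800 to under 1200 bases had -0.066 and -0.054. Those of 1200 to under 2000 bases had -0.037 and -0.027, and those of 2000 to under 3000 bases had 0.0099 and 0.0080. Those of 3000 bases and over had 0.049 and 0.039. The members had a median length of 1302 bases against 2860 for all genes. The 16 members under 800 bases had medians of -0.11 and -0.21. The 19 members of 800 to under 1200 bases had medians of -0.18 and -0.17, and the 18 of 1200 to under 2000 bases -0.16 and -0.090. The 8 members of 2000 to under 3000 bases had medians of -0.185 and -0.137, and the 17 of 3000 bases and over -0.034 and -0.062. Over the members, length and log2 fold change had a Spearman rho of 0.21 (gastrocnemius) and 0.24 (quadriceps), and over all genes of 0.17 and 0.14. It was 0.28 and 0.34 in the large subunit and 0.11 and 0.021 in the small subunit. Genes are not independent, and these values share the same libraries. The part of length was not tested further.

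The upstream sequence of the members was searched for motifs of factors known for genes of mitochondria and ribosomes. These were NRF1 (GCGCA and GCGC with 1 base of any kind between them), the core of ETS factors such as GABP (CCGGAAG), and YY1 (AAGATGGCG), each on both strands, in windows from 250 bases before to 50 after the RefSeq transcript start (GRCm38.p6). At least 1 window was given for 69 of the 78 members, and a gene counted once if any of its windows held the letters. The ETS letters were in 26 of these (37.7%), against 21.7% of the 7718 genes tested that had a window and 9.93% of all 27025 genes with one. NRF1 letters were in 13 (18.8%, against 12.8% and 5.19%) and YY1 letters in 8 (11.6%, against 4.09% and 1.64%). Of 67 cytosolic ribosomal protein genes with a window, 38.8% held the ETS, 8.96% the NRF1 and 5.97% the YY1 letters. Of 74 nuclear oxidative phosphorylation genes with a window, the shares were 24.3%, 25.7% and 10.8%. In the large subunit 10 of 43 genes with a window held the NRF1 letters and in the small subunit 3 of 26. The ETS letters were in 15 of 43 and 11 of 26. A match is a description of these letters and not a bound site. Mrpl34 and Mrpl43, with the 2 smallest p-values in the gastrocnemius, and Mrpl12, of the stalk, are shown as examples with the 120 bases before the start and the motif in capitals. They lie at chr8:71464806-71464925 (plus strand), chr19:45006443-45006562 (minus strand) and chr11:120484517-120484636 (plus strand). In Mrpl34 there is 1 ETS match, in Mrpl43 there are 2, and in Mrpl12 there is 1 NRF1 match, on the opposite strand. Mrps24, Mrpl55 and Mrpl28, which also had small p-values over both muscles, held no match in these 120 bases. A tie between the motifs and the flight values was not tested.
Mrpl34: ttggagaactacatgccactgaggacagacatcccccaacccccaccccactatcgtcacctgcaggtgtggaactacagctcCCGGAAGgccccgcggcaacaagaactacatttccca
Mrpl43: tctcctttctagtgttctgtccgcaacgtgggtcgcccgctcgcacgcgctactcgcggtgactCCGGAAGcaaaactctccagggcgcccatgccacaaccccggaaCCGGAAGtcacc
Mrpl12: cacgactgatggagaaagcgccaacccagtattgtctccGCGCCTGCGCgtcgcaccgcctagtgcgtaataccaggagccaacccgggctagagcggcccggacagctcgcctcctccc

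Differential alternative splicing (DAS) was examined for the member genes in the tables of skipped and mutually exclusive exons. Events that passed the read filter were found in 2 member genes, Mrps18c and Mrpl13, both skipped exons and both kept in both muscles. Exon 4 of Mrps18c, homologue of bacterial S18 in the small subunit, is a coding exon of 58 bases at chr5:100803053-100803110 on the plus strand (GRCm38). Its percent spliced in (PSI) in the gastrocnemius was 100, 90.5 and 72.7% on the ground and 63.6, 70.4 and 45.5% in flight. In the quadriceps it was 81, 89.7 and 100% on the ground and 66.7, 78.9 and 63.2% in flight. The groups did not overlap in either muscle, and of the events kept in both muscles 1.24% had this pattern. In the gastrocnemius PSI differed by -27.9%, at an unadjusted p under 0.05 (limma adjusted p = 0.45). It was -20.6% in the quadriceps, where the unadjusted p was over 0.05 (limma adjusted p = 0.677), so neither event was called. Of all kept events, 0.378% were called in the gastrocnemius, where 9.49% had an unadjusted p under 0.05. The quadriceps had 0% called, with 7.76% at that p. The reads were few, with 50 inclusion and 4 skipping reads over the 3 ground samples of the gastrocnemius and 53 and 20 over the flight samples. In the quadriceps they were 80 and 6 on the ground and 55 and 13 in flight. Samples of a group are unnamed in these tables, so no value can be tied to a mouse.

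The sequences of the 2 forms of Mrps18c, from GENCODE vM21 transcripts, show what the exon carries. Both start with the last 30 bases of exon 3. In the included form the 58 bases of exon 4 are in capitals. The length of exon 4 is not a multiple of 3, so skipping it shifts the reading frame, and in the annotated skipped form the next exon then ends the protein at the TAA in capitals.
Mrps18c included: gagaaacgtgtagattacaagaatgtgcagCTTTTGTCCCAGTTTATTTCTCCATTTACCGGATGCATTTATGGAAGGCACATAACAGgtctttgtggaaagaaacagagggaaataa
Mrps18c skipped: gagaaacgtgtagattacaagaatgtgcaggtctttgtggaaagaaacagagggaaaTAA
The summed transcript level of Mrps18c was 35.3 ± 3 and 33.0 ± 5.54 TPM in the ground and flight gastrocnemius, and 48.4 ± 7.16 and 41.1 ± 5.86 TPM in the quadriceps (SD, n = 3 each). It overlapped between flight and ground in both muscles. Of its sequence 34.5% is shared with other genes, while the junction reads are counted at the exon itself.

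**Figure D5:**
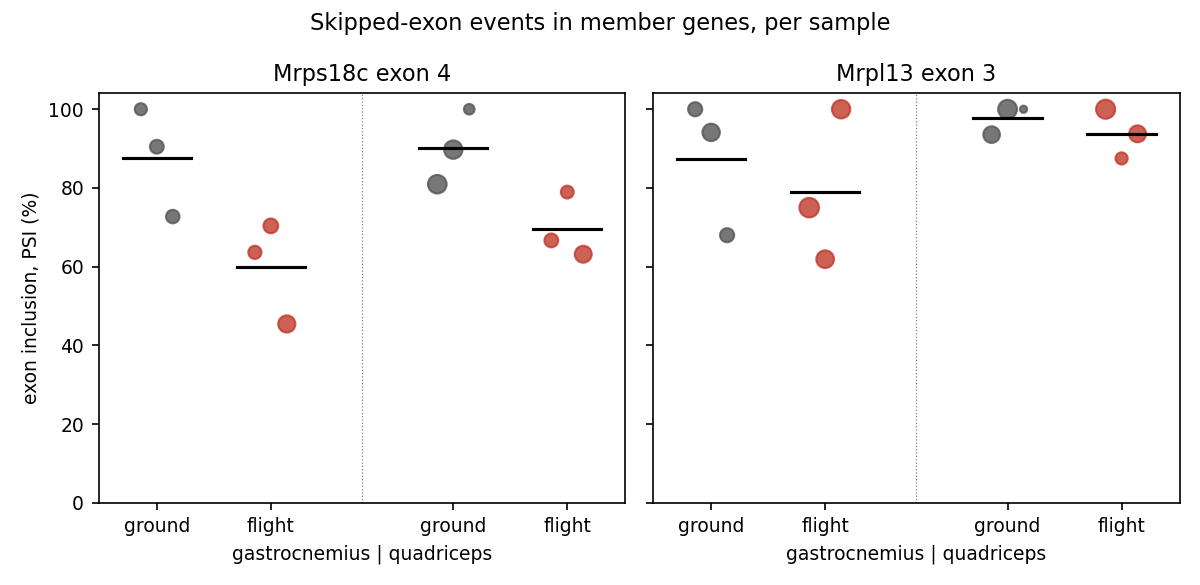
Percent spliced in (y axis) of Mrps18c exon 4 and Mrpl13 exon 3 in each sample, ground in grey and flight in red, with point area growing with the number of junction reads and black bars at the means. For Mrps18c every flight sample is below every ground sample in both muscles, and for Mrpl13 the groups overlap.

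In Mrpl13, of the large subunit, exon 3 has 94 bases at chr15:55548142-55548235 on the minus strand. Its PSI in the gastrocnemius was 100, 94.1 and 68% on the ground and 75, 61.9 and 100% in flight. In the quadriceps it was 93.5, 100 and 100% on the ground and 100, 87.5 and 93.8% in flight. The groups overlapped in both muscles, with limma adjusted p of 0.929 and 0.99.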

How the data were processed

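The study sequenced stranded mRNA libraries with 50-base reads from 12 muscle samples. The deposited expression values are TPM, which the authors estimated with kallisto 0.46.0 (version per the submitters' notes) and summed per gene, and no depth can be read from them. The deposited splicing tables hold whole-number junction reads of each event and both forms' lengths, which the authors made with STAR 2.7.1a on mm10 and rMATS-turbo. Their columns of PSI, differences, p-values and FDR were not used. Whether kallisto was run with strand is not given in the sources used here. Group order in the splicing tables was taken from their names, ground first.

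Genes with TPM above 5 in at least 1 library were kept (10481). Log2(TPM + 1) was fitted with limma 3.58.1 in R 4.3.3 (lmFit, eBayes with a trend). P-values are two-sided and Benjamini-Hochberg adjusted over all genes kept, and a gene was called past 1.5-fold at an adjusted p under 0.05. The study's DESeq2 needs counts and was not applied. Flight was tested within each muscle, on the mean of both muscles per mouse, and as an interaction with mouse as a block. The muscles were compared in one fit of 4 group means, without a mouse block. Log2 fold changes are on the log2(TPM + 1) scale, which understates changes of low genes. On simulated data with 200 genes changed by 0.75 on the log2 scale among 10481, the gastrocnemius test recovered 84% and the quadriceps test 75.5%. The changed genes were above a low mean level, and the noise was normal and independent, without shifts of whole libraries. Changes as small as the members' medians (-0.12 and -0.14) were not simulated, so these rates do not apply to them.

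For splicing, each group had to average more than 10 junction reads for an event, and events with a PSI of at most 0.05, or of at least 0.95, throughout the 6 samples were dropped. This left 2118 events in the gastrocnemius and 2062 in the quadriceps. Log2 ratios of inclusion to skipping reads, with 0.5 added, were fitted with limma, and called means an adjusted p under 0.05 and a PSI change over 5%. PSI was recomputed from reads and lengths.

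Same-mouse libraries of the 2 muscles deviated together with r of -0.12 to 0.33, and the pairing comes from the mouse names. Ground and flight libraries with the same replicate number had r of -0.18 to 0.11, and the labels name no source that they share.

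The members, the gene lists and the tests were chosen with earlier results of these data known. Genes were named by rule: members called in any comparison; the 5 large and 5 small members with the smallest p in each flight comparison; the 5 highest and 3 lowest of each subunit by mean TPM; the 5 smallest p for the interaction and between the muscles; members without overlap in both muscles; a few of set interest; members with 20% or more of their 31-base runs shared, or with a splicing event; and the 2 smallest p of each related list. Settings tried were another pseudocount (0.1), filters, scaling, variance model, fits with a block, and leaving out each mouse or, for splicing, each unnamed sample.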

Additional observations from a re-analysis of the deposited data

How the results depend on the processing

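The median change of the members stayed below 0 under every alternative in the flight and muscle comparisons, and the cause of the shifts below was not tested. Shares of all genes at an adjusted or unadjusted p alone were not taken under the alternatives, so such counts of members have no background here. Genes called in the gastrocnemius (24) were 4 with no filter on low values, 5 without a trend and 0 with the replicate number as a block. In the quadriceps (3) they were 1 after rescaling by the median ratio, 1 without a trend and 0 with the replicate block. Over both muscles (13) they were 6 with a pseudocount of 0.1, 0 with no filter, 3 with TPM above 1 in at least 3 libraries, 32 after rescaling, 0 without a trend and 3 with the replicate block. For the interaction (0) they were 2 with no filter, neither a member. With the mouse as a block the muscle comparison of ground mice had 21 members at an adjusted p under 0.05 (14 without the block), and no count of members moved by over 1.5 times with a block.

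Rescaling gave 23 members lower in the gastrocnemius at an unadjusted p under 0.05 (14), 1 in the interaction (0), and, between the muscles, medians of -0.12, -0.13 and -0.12 over all, ground and flight mice. It also gave 20 and 7 members at an adjusted p under 0.05 over all and in flight mice, 23 and 21 at an unadjusted p under 0.05 in ground and flight mice, and 173 genes called in ground mice. With no filter, ground mice had 165 genes called and 8 members at an adjusted p under 0.05, and flight mice 10 members. Without the 13 members of shared sequence, large minus small was -0.10 between the muscles and 0.32 for levels.

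Leaving out each mouse gave 1 to 133 genes called in the gastrocnemius, 1 to 4 in the quadriceps, 0 to 134 over both, 21 to 289 between the muscles of ground mice and 131 to 361 of flight mice. Members lower at an unadjusted p under 0.05 were 6 to 24 in the gastrocnemius, 10 to 18 in the quadriceps, 20 to 43 between the muscles of ground mice and 21 to 37 of flight mice. Members at an adjusted p under 0.05 were 0 to 4 in the gastrocnemius, 0 to 10 over both, 26 to 37 between the muscles over all mice, 0 to 21 in ground and 4 to 16 in flight mice. Members called between the muscles were 0 to 2 over all mice and 0 to 6 in flight mice. Large minus small in the gastrocnemius was -0.0050 to 0.036. The median between the muscles of ground mice was -0.33 to -0.22. For splicing, each unnamed sample was left out by its place in the list, which gave 1 to 9 events called in the gastrocnemius. The log2 ratio change of the Mrpl13 exon, not called, turned sign at -1.88 to 0.42 in the gastrocnemius and -0.78 to 0.92 in the quadriceps. Of values of single members, 683 kept their direction and side of the threshold, 12 no longer passed, 7 newly passed and 5 turned, all 5 of the Mrpl13 exon. The 12 were all of Mrpl33, Mrps33, Mrpl40 and Mrps14 between the muscles of flight mice, the only members that passed in the main fits. Most of the 683 were values that did not pass in either setting.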
